A study of Rattus norvegicus with 6 samples.

Results

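The genes described here are the interleukins and the subunits of their receptors. They were chosen by name: every gene in the deposited tables whose symbol begins with Il followed directly by a digit, with Il4, Il5, Il13, Il33 and Il1rl1 left out. This gave 75 of the 32883 genes listed. By role, 32 encode ligands or ligand subunits, 36 receptor subunits or receptor-like proteins and 6 antagonists, binding proteins or decoy receptors, and the remaining gene, Il4i1, encodes a secreted amino acid oxidase. They were followed in single cells of the pancreas of 6 male Wistar rats, each of which gave 1 library. The young rats were 2 months old and on a normal diet (n = 2), the old rats were 20 months old and had stayed on the normal diet (n = 2), and the HFHF-old rats were 20 months old and had received a high-fat high-fructose diet from 2 months of age on (n = 2). All cells came from a collagenase digest followed by a density gradient of the kind used to isolate islets, so the class sizes are those of the suspension and not of the organ, and counts were taken at the 3′ ends of transcripts with unique molecular identifiers (UMIs). The old rats are the control of one comparison and the tested group of the other, so the comparison of old with young rats and that of HFHF-old with old rats share those samples.

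Interleukins are secreted proteins that pass signals between cells, most of them between cells of the immune system. Each binds a receptor made of several chains, and many chains are shared: the gamma chain Il2rg serves interleukin-2, interleukin-7, interleukin-9, interleukin-15 and interleukin-21, and gp130 (Il6st) serves interleukin-6, interleukin-11 and interleukin-27. Which chains a cell carries shapes what it can respond to, while soluble antagonists such as Il1rn, binding proteins such as Il18bp and decoy receptors such as Il1r2 limit the signal. In pancreatic islets interleukin-1β, made mainly by myeloid cells, is known for its effects on beta cells.

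The 6 libraries held 78024 barcodes, of which 75201 passed the filters, and 77387928 to 166875258 UMIs each. The chosen genes took 945537 of the UMIs in the cells kept. Cells were clustered without these 75 genes, so that their levels across classes did not set the classes, and clusters were named from marker lists. In all 61401 cells (81.6%) fell into 19 named classes and 13800 stayed unnamed. The libraries were unequal in make-up, which bears on the levels by rat. In HFHF-old rat 2, NK-like cells made up 70.0% of the cells (8203 cells) against 1.17% to 9.30% in the other rats, and macrophage-like cells 0.580% (68 cells) against 19.5% to 35.4%. In HFHF-old rat 1, 40.9% of the cells were unnamed, and 2 macrophage-like clusters found almost only there held 2131 and 1399 of its 3882 macrophage-like cells. Pairs of libraries shared 20 to 69 barcodes, at most 0.604% of the smaller library. A level is given in CPM, the UMIs of a gene scaled to 1000000 UMIs of all cells of that class in that rat, and only where the rat had at least 20 such cells. Since the counts come from transcript ends and not from whole transcripts, levels were compared between classes and rats and not between genes.

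Of the 75 genes, 50 had a leading class: the class with the highest mean level over rats, among the 16 classes with at least 20 cells in 3 or more rats, at 10 CPM or more. A leading class was found for 34 of 36 receptor genes, 11 of 32 ligand genes and 4 of 6 antagonist, binding or decoy genes. The 10 CPM limit was the same for every gene, so these counts also depend on the level of each gene. They do not rank the roles, and the same counts over all genes were not made. The ILC2-like class (group 2 innate lymphoid cells) led for 9 genes, the macrophage-like and mesothelial-like classes for 7 each, the NK-like class for 5, the B-like and fibroblast-like classes for 4 each, the T-like, dendritic-like and ductal-like classes for 3 each, the endothelial-like class for 2 and the smooth muscle-like, plasma-like and PP-like classes for 1 each. No gene was led by acinar-like, alpha-like or beta-like cells. The level in the leading class was at least 2-fold that in the second for 23 of the 50 genes, and higher than in the second in every rat that held both for 24. The map of mean levels by class shows these 50 genes.

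**Figure D1:**
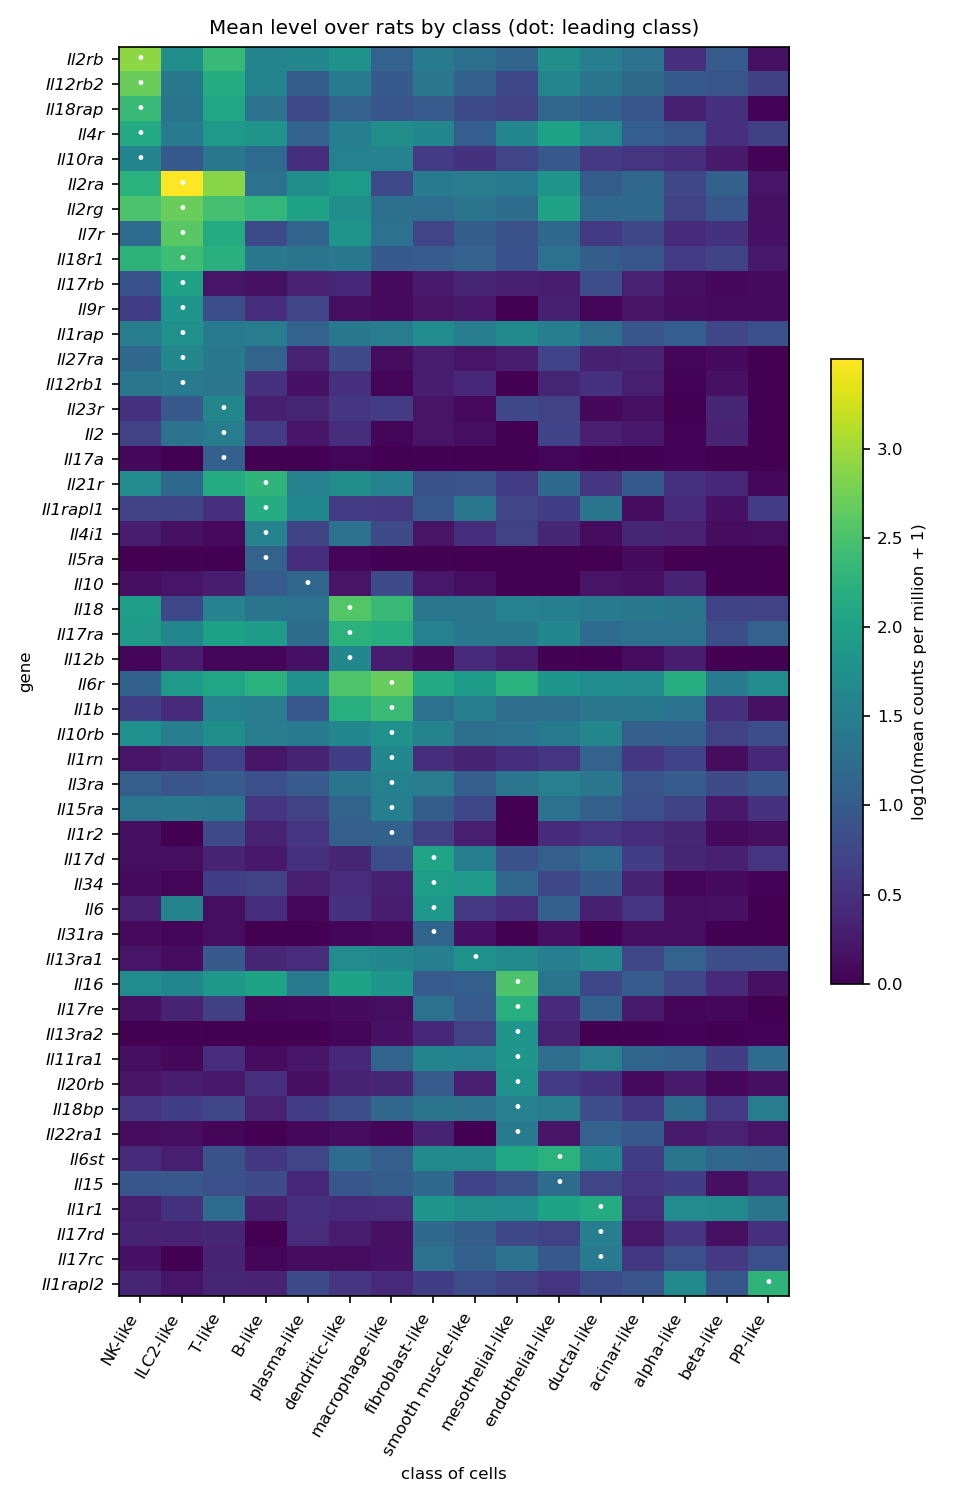
Mean level over rats (colour, log10 of the mean CPM + 1, CPM being counts per 1000000) of the 50 genes with a leading class (rows) in the 16 classes with at least 20 cells in 3 or more rats (columns). A dot marks the leading class: 9 genes lie in the ILC2-like column and 7 each in the macrophage-like and mesothelial-like columns, and no dot lies in the acinar-like, alpha-like or beta-like columns.

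Promoter sequences are shown for 4 genes, 2 ligands, an antagonist and a receptor, on which much of the account turns: Il1b and Il1rn, which shared their highest cluster, Il6, led by fibroblast-like cells, and Il2ra, led by ILC2-like cells. Each run holds the 250 bases before the annotated transcription start in RefSeq on the GRCr8 build, read 5′ to 3′ on the strand of the gene. Capitals mark matches on either strand to TTNNGNAAT (bound by C/EBP factors), to the NF-κB consensus or to GGAAGT (bound by ETS factors); no base was covered by more than 1 of these motifs. The windows are chr3:137036582-137036831 (minus strand) for Il1b, chr3:27520072-27520321 (plus strand) for Il1rn, chr4:5894576-5894825 (minus strand) for Il6 and chr17:71808476-71808725 (minus strand) for Il2ra.
Il1b: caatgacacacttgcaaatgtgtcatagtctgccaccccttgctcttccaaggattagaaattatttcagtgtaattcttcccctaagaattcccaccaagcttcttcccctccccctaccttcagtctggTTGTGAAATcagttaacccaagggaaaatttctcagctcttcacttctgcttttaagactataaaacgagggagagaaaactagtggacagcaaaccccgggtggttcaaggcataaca
Il1rn: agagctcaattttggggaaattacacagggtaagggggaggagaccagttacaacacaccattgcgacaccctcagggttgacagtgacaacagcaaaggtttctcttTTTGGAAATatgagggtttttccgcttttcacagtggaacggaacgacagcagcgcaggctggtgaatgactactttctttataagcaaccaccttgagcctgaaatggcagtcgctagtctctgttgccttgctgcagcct
Il6: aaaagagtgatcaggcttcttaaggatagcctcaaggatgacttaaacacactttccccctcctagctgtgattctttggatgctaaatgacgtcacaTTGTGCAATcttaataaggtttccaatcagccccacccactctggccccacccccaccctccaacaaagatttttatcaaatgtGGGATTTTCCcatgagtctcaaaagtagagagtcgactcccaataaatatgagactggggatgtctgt
Il2ra: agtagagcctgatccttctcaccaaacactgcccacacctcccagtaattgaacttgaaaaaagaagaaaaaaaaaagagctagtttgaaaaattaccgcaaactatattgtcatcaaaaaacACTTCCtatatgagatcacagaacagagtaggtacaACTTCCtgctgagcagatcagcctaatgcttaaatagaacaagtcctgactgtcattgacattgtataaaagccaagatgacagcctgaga

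Il1b, Il1rn and Il6 each held 1 match to TTNNGNAAT, which began 119, 142 and 152 bases before the start. Il6 also held a match to the NF-κB consensus 68 bases before the start, and Il2ra held 2 matches to GGAAGT on the opposite strand. Of all 33469 RefSeq promoter windows of this length, 10.9% held TTNNGNAAT, 6.33% the NF-κB consensus and 19.2% GGAAGT. Among the 56 chosen genes matched to a single RefSeq entry, 12, 5 and 11 held them. These matches describe the letters of the windows and not the binding of a factor.

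Of the receptors of interleukin-2 and its relatives, all but Il15ra were led by lymphoid classes. The ILC2-like class held 785 and 349 cells in the young, 32 and 81 in the old and 55 and 141 in the HFHF-old rats. Il2rb, the beta chain that interleukin-2 and interleukin-15 share, was highest in NK-like cells in 6 of 6 rats, with 924 and 721 CPM in the young rats, 809 and 735 in the old rats and 739 and 847 in the HFHF-old rats. Its mean there was 796 ± 79.8 (SD, n = 6) CPM against T-like cells at 227 ± 78.4, and the 3 groups overlapped. Il2ra, the alpha chain that raises the affinity for interleukin-2, was highest in ILC2-like cells in 6 of 6 rats, with 2372 and 965 CPM in the young rats, 3644 and 2832 in the old rats and 4839.9 and 4313 in the HFHF-old rats. Both HFHF-old rats lay above the other 4, and young rat 2 lay lowest. The difference between HFHF-old and old rats did not pass the test described below. T-like cells followed with 747 ± 461 (SD, n = 6). Il2rg was also led by ILC2-like cells, at 573 and 468 CPM in the young rats, 464 and 486 in the old rats and 530.0 and 438 in the HFHF-old rats, and was higher there than in NK-like cells in 6 of 6 rats. Mast-like cells, with at least 20 cells in young rat 1 and HFHF-old rat 2 only, held 463 and 423 CPM of Il2rg.

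Il7r, the receptor chain for interleukin-7, reached 607 and 416 CPM in the young rats, 337 and 347 in the old rats and 394 and 300.1 in the HFHF-old rats in ILC2-like cells. The young rats lay above the others, and the class was higher than T-like cells in 6 of 6 rats. Il9r, the interleukin-9 receptor, was highest in ILC2-like cells in 6 of 6 rats: it reached 81 and 69.5 CPM in the young rats, 81.8 and 56.7 in the old rats and 56.3 and 48.1 in the HFHF-old rats, and the second class was T-like cells at 5.95 ± 7.43, with 11.4 and 18.7 CPM in the young rats. For interleukin-9 itself, Il9, no UMI was found in any of the cells kept. Il21r, the interleukin-21 receptor, was highest in B-like cells in 6 of 6 rats, at 252 and 109 CPM in the young rats, 192 and 119.7 in the old rats and 287 and 208 in the HFHF-old rats, with T-like cells next at 142 ± 27 (SD, n = 6).

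The ligands of these receptors were uneven between rats. Il2, which activated T cells secrete, reached 23.4 and 11 CPM in the young rats, 31.4 and 35.8 in the old rats and 13.4 and 59 in the HFHF-old rats in T-like cells. ILC2-like cells held 20.7 ± 16 (SD, n = 6), and the T-like class was the higher of them in only 3 of 6 rats. Il21, secreted by helper T cells, was below the 10 CPM limit in T-like cells on average, at 2.29 and 0 CPM in the young rats, 0 and 1.38 in the old rats and 9.33 and 45.6 in the HFHF-old rats. Both HFHF-old rats lay above the other 4. Il15, which sustains NK cells, was low and broadly held, at 17.5 and 9.46 CPM in the young rats, 22.4 and 14.4 in the old rats and 12.3 and 22 in the HFHF-old rats in endothelial-like cells and 14.6 ± 3.69 (SD, n = 6) in fibroblast-like cells, a difference smaller than the spread between rats. Its presenting chain Il15ra reached 11.9 and 16 CPM in the young rats, 24.5 and 28.3 in the old rats and 15.2 and 95.1 in the HFHF-old rats in macrophage-like cells, where the mean rested on HFHF-old rat 2 with its 68 cells. In each of the other 5 rats another class was higher. Il7 did not reach the limit in any class and had 912 UMIs in all.

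**Figure D2:**
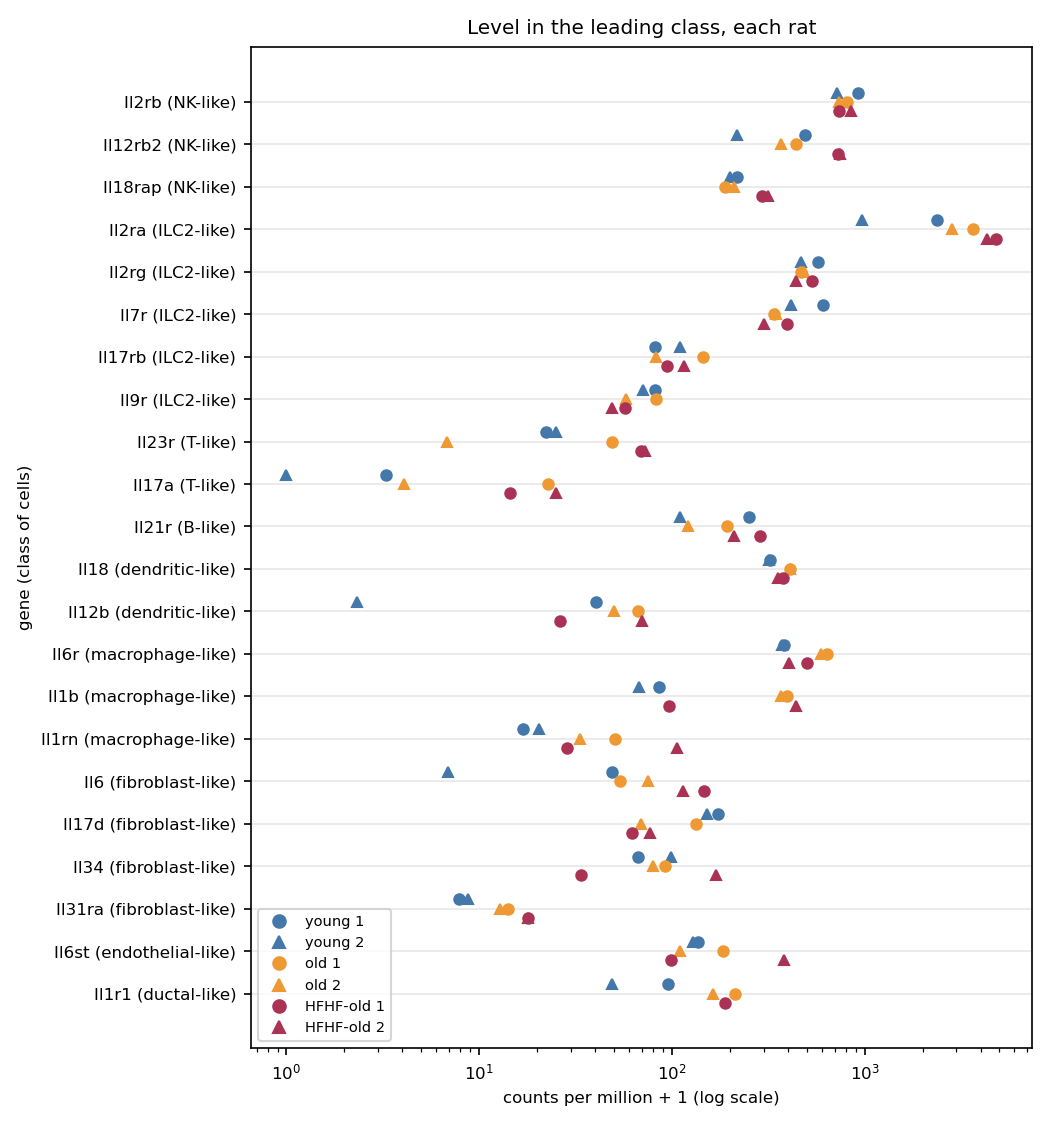
Level (CPM + 1, log scale) of 22 genes in their leading class, named in parentheses, in each rat with at least 20 such cells; colour gives the group and circle or triangle the rat. Il2rb in NK-like cells lay between 721 and 924 CPM in all 6 rats, whereas Il6 in fibroblast-like cells ran from 5.88 to 145.

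Receptors of interleukin-12 and interleukin-18 were led by NK-like and ILC2-like cells. Il12rb2, the signalling chain for interleukin-12, was highest in NK-like cells in 6 of 6 rats, at 490.4 and 217 CPM in the young rats, 441 and 366 in the old rats and 729 and 742 in the HFHF-old rats. The HFHF-old rats lay above the other 4, but their difference from the old rats did not pass the test described below. T-like cells came next with 147 ± 84.1 (SD, n = 6). Its partner Il12rb1, which interleukin-23 also uses, was held at like levels by ILC2-like, NK-like and T-like cells, at 25.8 and 29.3 CPM in the young rats, 29.4 and 14.2 in the old rats and 23.3 and 30.9 in the HFHF-old rats in ILC2-like cells, 22.8 ± 4.22 (SD, n = 6) in NK-like and 23.2 ± 6.55 (SD, n = 6) in T-like cells, against 2.18 ± 1.95 (SD, n = 6) in B-like cells. Il18rap, the accessory chain of the interleukin-18 receptor, reached 217 and 199 CPM in the young rats, 187 and 209.5 in the old rats and 291 and 315 in the HFHF-old rats in NK-like cells and was highest there in 6 of 6 rats. Il18r1, the chain that binds interleukin-18, reached 392 and 169 CPM in the young rats, 199.5 and 103 in the old rats and 406 and 276 in the HFHF-old rats in ILC2-like cells. NK-like cells held 179 ± 15.9 (SD, n = 6), and the order of these classes held in 4 of 6 rats. T-like cells held 163 ± 70.5 (SD, n = 6) and were the highest class in old rat 1. Mast-like cells, with values for only 2 rats, averaged 248 CPM.

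Their ligands lay in dendritic-like and macrophage-like cells. Il18 was highest in dendritic-like cells in 6 of 6 rats, at 320.4 and 319.9 CPM in the young rats, 409 and 411 in the old rats and 375 and 355 in the HFHF-old rats. Both old rats lay above both young rats there, and macrophage-like cells held 226 ± 71.3 (SD, n = 6). Il12b, the subunit that interleukin-12 and interleukin-23 share, reached 39.2 and 1.31 CPM in the young rats, 66.2 and 49.3 in the old rats and 25.2 and 69.2 in the HFHF-old rats in dendritic-like cells. Young rat 2 stood far below the other 5, and within the class a sub-cluster of 23 cells led by Ccl22 held 253 CPM over all rats against 53.4 in the 1359 cells led by Clec9a and Xcr1. The specific subunits were scarce. Il12a had 131 UMIs in all, 47 of them in the 75 mast-like cells (70.3 CPM over all rats), and Il23a had 463, with no class at 10 CPM. Il18bp, the secreted inhibitor of interleukin-18, was low in many classes and led by mesothelial-like cells at 20.1 CPM in the young rat and 42 and 33.8 in the old rats. PP-like cells held 28.2 ± 7.78 (SD, n = 4). The difference was smaller than the spread between rats, but the mesothelial-like class was the higher in 3 of 3 rats that held both. Il27ra, the specific chain of the interleukin-27 receptor, was highest in ILC2-like cells in 6 of 6 rats, at 45.4 and 56 CPM in the young rats, 32.7 and 31.9 in the old rats and 48.5 and 31.6 in the HFHF-old rats, while Il27 had 99 UMIs in all.

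In the interleukin-17 family Il17a lay in T-like cells, while the other ligand with a leading class and most receptor chains lay in structural and innate classes. Il17a, made by a subset of T cells that also carry the interleukin-23 receptor, reached 2.29 and 0 CPM in the young rats, 21.8 and 3.06 in the old rats and 13.4 and 24.2 in the HFHF-old rats in T-like cells. A single T-like cluster, led by Scart1, Ccr6 and Foxp3, held most of the T-like UMIs: over all rats its 734 cells had 91.0 CPM of Il17a against 1.79 in the 3929 cells of the largest T-like cluster, and 27.1 of Il17f. This cluster supplied 469 of the 515 T-like cells of HFHF-old rat 1 but 17 of 281 in young rat 1. Within it Il17a ran from 15.9 CPM in HFHF-old rat 1 to 256 in old rat 1. Il23r reached 21.1 and 24.1 CPM in the young rats, 48.2 and 5.81 in the old rats and 68.3 and 71.7 in the HFHF-old rats in T-like cells, with 260 CPM over all rats in the same cluster. It stood at 464 CPM in an unnamed cluster of 340 cells led by Espn, Lta and Ccr6, which also held 17 of the 53 UMIs of Il22. In the rats with at least 20 cells of that cluster Il23r stood at 307 in young rat 1, 462 in old rat 1, 399 in HFHF-old rat 1 and 608 in HFHF-old rat 2.

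Of the other ligands of this family, Il17d was highest in fibroblast-like cells in 6 of 6 rats, at 172 and 152 CPM in the young rats, 132 and 68 in the old rats and 61.1 and 76.5 in the HFHF-old rats. Both HFHF-old rats and old rat 2 lay below the other 3. Il17f, Il17b, Il25 and Il17c did not reach the limit in any class and had 198, 146, 22 and 1 UMIs in all. Il17rb, the receptor chain for Il25, was highest in ILC2-like cells in 6 of 6 rats, at 80.6 and 109 CPM in the young rats, 144 and 81.5 in the old rats and 93.2 and 114 in the HFHF-old rats, 15.9-fold above the second class. Il17ra, the chain common to the family, reached 185 and 189 CPM in the young rats, 179 and 129 in the old rats and 161 and 206 in the HFHF-old rats in dendritic-like cells and 149.8 ± 35.4 (SD, n = 6) in macrophage-like cells. Its partner Il17rc was led by ductal-like cells at 22.3 and 43.5 CPM in the young rats, 27 and 17.9 in the old rats and 28 in the HFHF-old rat, as was Il17rd at 30.5 and 43.5 CPM in the young rats, 32 and 33.1 in the old rats and 11.2 in the HFHF-old rat. Il17re reached 192 CPM in the young rat and 190.3 and 101 in the old rats in mesothelial-like cells, in 3 of 3 rats above fibroblast-like cells.

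Of the interleukin-1 family, Il1b, Il1rn and Il1r2 were led by macrophage-like cells. Il1b, the gene of interleukin-1β, reached 85.1 and 66.5 CPM in the young rats, 395 and 366 in the old rats and 95.6 and 439.7 in the HFHF-old rats in macrophage-like cells. Both old rats lay above both young rats, while the HFHF-old rats lay apart from each other. Dendritic-like cells held 81.3 and 150.1 CPM in the young rats, 161 and 219 in the old rats and 212 and 99.9 in the HFHF-old rats. The macrophage-like class was the highest in 4 of 6 rats. With UMIs summed over rats the dendritic-like class led instead, at 165 CPM. The 439.7 CPM of HFHF-old rat 2 came from 68 macrophage-like cells, 19 of them marked as doublets. The highest level of all was in the 34 cells of the neutrophil/monocyte-like class, led by S100a8, S100a9 and Mmp8. This class came from a second clustering, a step chosen after the data were seen. Of its cells 18 came from HFHF-old rat 1 and 0 from young rat 2, too few per rat for a value by rat. Over all rats it held 5739 CPM of Il1b, 1090 of the decoy receptor Il1r2 and 703 of the antagonist Il1rn. An unnamed cluster of 1284 cells led by Havcr2, RT1-Bb and Adam8 held 463 CPM of Il1b and 134 of Il1r2.

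Among the inhibitors, Il1rn reached 15.9 and 19.4 CPM in the young rats, 49.5 and 32.3 in the old rats and 27.4 and 106 in the HFHF-old rats in macrophage-like cells. Both old rats lay above both young rats, and HFHF-old rat 2 lay highest. Il1r2 reached 8.21 and 8.8 CPM in the young rats, 29.96 and 15.3 in the old rats and 5.47 and 0 in the HFHF-old rats in the same cells, close to the 10.6 ± 7.68 (SD, n = 6) of dendritic-like cells. Il1r1, the signalling receptor, was in contrast held by structural cells. In ductal-like cells it reached 95.1 and 47.9 CPM in the young rats, 211 and 163 in the old rats and 187 in the HFHF-old rat, and in endothelial-like cells 56.7 and 54 CPM in the young rats, 127 and 103 in the old rats and 106 and 186 in the HFHF-old rats. The lowest ductal-like values were those of the young rats. Islet classes also held it, at 47.7 ± 11.1 (SD, n = 5) in alpha-like and 45.5 ± 33.6 (SD, n = 5) in beta-like cells. Its co-receptor Il1rap was found in nearly every class, at 40.4 and 35.1 CPM in the young rats, 81.8 and 92.1 in the old rats and 27.2 and 60.3 in the HFHF-old rats in ILC2-like cells and 49.8 ± 8.31 (SD, n = 6) in fibroblast-like cells; in classes with values for only 2 rats it averaged 81.9 CPM in mast-like and 59.0 in delta-like cells.

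Of the remaining genes of this family, Il1rapl2, a receptor-like protein of neurons, was highest in PP-like cells in 4 of 4 rats, at 76.7 and 73 CPM in the young rats and 431 and 159.7 in the old rats, and next in alpha-like cells at 23.5 and 15.5 CPM in the young rats, 83.3 and 47.1 in the old rats and 63.4 in the HFHF-old rat. Its relative Il1rapl1 was led by B-like cells, at 119 and 299 CPM in the young rats, 3.92 and 44.9 in the old rats and 51.9 and 357 in the HFHF-old rats. The 2 old rats and HFHF-old rat 1 lay far below the others, and the value of 3.92 CPM in old rat 1 was 1 UMI in 46 cells. Il1a, the gene of interleukin-1α, averaged 1.7 ± 2.67 (SD, n = 6) in macrophage-like cells, and Il36b 1.68 ± 2.05 (SD, n = 6). Il1rl2, the interleukin-36 receptor, had 398 UMIs, Il1f10 had 20, and Il36a, Il36g and the antagonist Il36rn had 6 each.

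Within the interleukin-6 family, the ligand and the receptor chains led in different classes. Il6 was led by fibroblast-like cells at 47.8 and 5.88 CPM in the young rats, 52.9 and 73.8 in the old rats and 145 and 113 in the HFHF-old rats. Both HFHF-old rats lay above the other 4 and young rat 2 lay lowest. Among the clusters, an unnamed one that carried all 11 fibroblast markers and was led by Col8a1, Penk and Has1 had 150.0 CPM of Il6; 1953 of its 2016 cells came from HFHF-old rat 1. Il6r, which binds interleukin-6, was highest in macrophage-like cells in 6 of 6 rats, at 382 and 374 CPM in the young rats, 642 and 594 in the old rats and 501 and 404 in the HFHF-old rats. Both old rats lay above the other 4, and dendritic-like cells held 346 ± 68.3 (SD, n = 6). Il6st reached 135 and 128 CPM in the young rats, 184 and 109.9 in the old rats and 98.5 and 379.9 in the HFHF-old rats in endothelial-like cells, where HFHF-old rat 2 stood above the other 5, and 125 ± 13.7 (SD, n = 3) in mesothelial-like cells.

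Il31ra, a receptor chain for interleukin-31, was highest in fibroblast-like cells in 6 of 6 rats, at 6.88 and 7.72 CPM in the young rats, 13.2 and 11.9 in the old rats and 17 and 16.9 in the HFHF-old rats, 26.4-fold above the second class. The groups did not overlap: the young rats were lowest and the HFHF-old rats highest. Neither step passed the test (log2 fold change 0.78, SE 0.248, edgeR quasi-likelihood test, adjusted p = 0.725, for old against young rats, and log2 fold change 0.36, SE 0.238, edgeR quasi-likelihood test, adjusted p = 0.978, for HFHF-old against old rats). Il11ra1, the interleukin-11 receptor, reached 46 CPM in the young rat and 78.4 and 75.1 in the old rats in mesothelial-like cells and 37.5 ± 12.4 (SD, n = 6) in fibroblast-like cells, while Il11 had 76 UMIs in all. Il34, a ligand of the receptor Csf1r, reached 65.6 and 98.1 CPM in the young rats, 91.4 and 79 in the old rats and 33 and 169 in the HFHF-old rats in fibroblast-like and 75.7 ± 45.3 (SD, n = 4) in smooth muscle-like cells, with the fibroblast-like class higher in 2 of 4 rats.

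Genes of the interleukin-10 family and the type 2 receptors were spread over immune and structural classes. Il10, an inhibitory cytokine, was led by plasma-like cells at 9.91 CPM in the young rat and 13.7 and 17.9 in the old rats, and B-like cells held 9.21 ± 10.5 (SD, n = 6). Its receptor chains Il10ra, at 35.9 and 23.7 CPM in the young rats, 41.9 and 32.4 in the old rats and 49 and 40.2 in the HFHF-old rats in NK-like cells, and Il10rb, at 70.3 and 52.1 CPM in the young rats, 59.6 and 54.5 in the old rats and 64.9 and 48.6 in the HFHF-old rats in macrophage-like cells, lay within 1 SD of their second classes, macrophage-like cells at 34.1 ± 16.8 and NK-like cells at 55.5 ± 5.94. Il22ra1, the interleukin-22 receptor of epithelia, reached 34.5 CPM in the young rat and 39.2 and 7.51 in the old rats in mesothelial-like cells, and Il20rb 109 CPM in the young rat and 56 and 22.5 in the old rats. Among classes with 3 or more rats Il20ra was highest in beta-like cells at 8.11 ± 3.61 (SD, n = 5), under the limit; delta-like cells held 43.7 CPM in young rat 1 and 15.1 in old rat 2, the only rats with at least 20 of them. The binding protein Il22ra2 had 525 UMIs, Il24 had 65, Il19 had 16 and Il20 had 4.

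Il4r, the alpha chain of the type 2 receptors, reached 136 and 89.7 CPM in the young rats, 174 and 97.2 in the old rats and 109 and 205 in the HFHF-old rats in NK-like cells. Endothelial-like cells held 106 ± 53.5 (SD, n = 6). The difference was smaller than the spread between rats, but the NK-like class was the higher in 5 of 6 rats. Il13ra1 was led by smooth muscle-like cells at 48.3 and 31 CPM in the young rats and 151 and 18.5 in the old rats, a mean that rested on old rat 1 with 23 such cells. The decoy Il13ra2 reached 25.9 CPM in the young rat and 171 and 3.76 in the old rats in mesothelial-like cells, far apart between the rats. Il16, a chemoattractant of T cells, was also led there, at 322 CPM in the young rat and 473 and 207 in the old rats, with dendritic-like cells at 107 ± 15.1. Il3ra reached 30.7 and 33.3 CPM in the young rats, 34.2 and 33 in the old rats and 37.6 and 29.6 in the HFHF-old rats in macrophage-like cells and 32.5 ± 9.25 (SD, n = 6) in endothelial-like cells, while mast-like cells held 97.8 CPM in young rat 1 and 102 in HFHF-old rat 2. Il5ra was held by B-like cells at 5.04 and 52.2 CPM in the young rats, 3.92 and 0 in the old rats and 1.73 and 9.55 in the HFHF-old rats, which rested on 28 UMIs. The enzyme gene Il4i1 reached 94.8 and 42.7 CPM in the young rats, 11.8 and 15 in the old rats and 19 and 26.5 in the HFHF-old rats in B-like cells; in the 23 cells of the Ccl22-led dendritic-like sub-cluster it stood at 499 CPM over all rats. For Il3, 2 UMIs were found.

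The 7 genes led by mesothelial-like cells rest on 3 rats with 35 to 47 such cells each, and no comparison of groups was possible in that class. With the leading class taken only from classes of at least 50 cells per rat, Il11ra1, Il16, Il17re and Il18bp passed to another class, and Il13ra2, Il20rb and Il22ra1 had no class at 10 CPM. A coarser clustering had no ILC2-like class, so 7 of the 9 genes led by it passed to other classes, and Il17rb and Il9r had no class at 10 CPM. Of the 46 genes with a leading class under that clustering, 29 kept the class given here.

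The share of cells with a UMI gave the same picture for the plainest cases. After every cell was thinned to 2000 UMIs, Il2rb was found in 73.1% to 80.4% of NK-like cells over the 6 rats and in 1.46% to 9.04% of acinar-like cells, which should lack it (94.7% and 7.09% before thinning, over all rats; median depth 8012 and 2297 UMIs). Il2ra was found in 73.5% to 100% of ILC2-like cells and in 0.584% to 3.49% of acinar-like cells (91.1% and 3.85% before thinning; median depth of ILC2-like cells 5790 UMIs). Il6 was found in 1.84% to 14.98% of fibroblast-like cells and in up to 0.438% of acinar-like cells (14.8% and 0.709% before thinning; median depth of fibroblast-like cells 6728 UMIs). Il1b was found in 7.17% to 39.2% of macrophage-like cells and in up to 7.04% of acinar-like cells (26.5% and 7.51% before thinning; median depth of macrophage-like cells 4151 UMIs).

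Compared to the young rats, the old rats had higher Il1b in alpha-like cells, the glucagon cells of the islet, and this was the only pair of gene and class past the threshold. The question was how age altered these genes within a class. Sums of UMIs over the cells of a class in each rat entered edgeR's quasi-likelihood test, in the 14 classes with at least 20 cells in both rats of both groups. A pair was called where its p, adjusted by Benjamini-Hochberg across every gene tested in that class, was under 0.05 and the change over 1.5-fold. Of 430 pairs tested, 1 was called, and DESeq2 called 7. Over all genes, 0.0189% of 148441 pairs were called by edgeR and 0.317% by DESeq2. By class the edgeR share was 0.0557% in alpha-like, 0.127% in PP-like, 0.0363% in ILC2-like, 0.0176% in beta-like, 0.00914% in dendritic-like, 0.0088% in NK-like, 0.00771% in macrophage-like and 0.00723% in fibroblast-like cells, and 0% in the other 6 classes. At an unadjusted p under 0.05, 71 pairs (16.5%) passed, 52 higher and 19 lower in old rats, against 4.91% of the pairs of all genes; 9 of the 71 were Il1b, and without Il1b 62 of 418 (14.8%) passed. The count of calls moved with single rats, as did that over all genes. Leaving out a young or an old rat leaves 1 rat in its group, which is assumed to vary like the others. A call made that way is not stronger evidence. Without young rat 2 it was 0 (41 of 152865 pairs over all genes), and without young rat 1 it was 1 (60 of 151096), a different pair, Il2ra in beta-like cells, lower in the old rats and named here after its values were seen. It was 5 without old rat 1 (406 of 155558), 11 without old rat 2 (943 of 156814), 4 without HFHF-old rat 1 (95 of 147464) and 3 without HFHF-old rat 2 (79 of 152459).

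Il1b in alpha-like cells stood at 5.5 and 1.07 CPM in the young rats (33 and 5 UMIs) and at 27.9 and 22.8 in the old rats (78 and 156 UMIs); HFHF-old rat 1, with 33 such cells of which 18 were marked as doublets, stood at 45.5. For old against young rats the log2 fold change was 3.42 (SE 0.472, edgeR quasi-likelihood test, adjusted p = 0.0419). The adjusted p was 0.077 with DESeq2's size factors (log2 fold change 3.42), 0.123 with no filter on low counts (3.37), 0.0797 without young rat 1 (4.66) and 0.0868 without young rat 2 (2.85), so the call ended there. With the top 1% of gene number kept Il1b was not among the genes tested in alpha-like cells, and under the coarser clustering alpha-like cells were not tested, so neither setting held the call. After thinning, an Il1b UMI was found in 3.74% and 3.59% of alpha-like cells of the old rats, below the 7.04% and 5.96% of their acinar-like cells, a class that should lack the gene. All 11 macrophage markers had UMIs in alpha-like cells of these 4 rats. They summed to 1173 and 594 CPM in the young rats, 778 and 876 in the old rats and 5334 in HFHF-old rat 1. Macrophage-like cells themselves held 85.1 and 66.5 CPM of Il1b in the young and 395 and 366 in the old rats. The part of macrophage RNA in the alpha-like difference was not tested.

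Il1b was higher in old rats in each of the 12 classes tested, by 0.70 to 3.42 on the log2 scale, as the plot of Il1b by class shows. In macrophage-like cells, where its mean over rats was highest among classes with values by rat, the difference had these values: log2 fold change 2.41, SE 0.625, edgeR quasi-likelihood test, adjusted p = 0.5. DESeq2 called it. Over all cells of a library Il1b stood at 32.9 and 21.1 CPM in the young, 157 and 102 in the old and 56.9 and 6.68 in the HFHF-old rats. The part of these library totals in the differences outside myeloid classes was not tested.

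**Figure D3:**
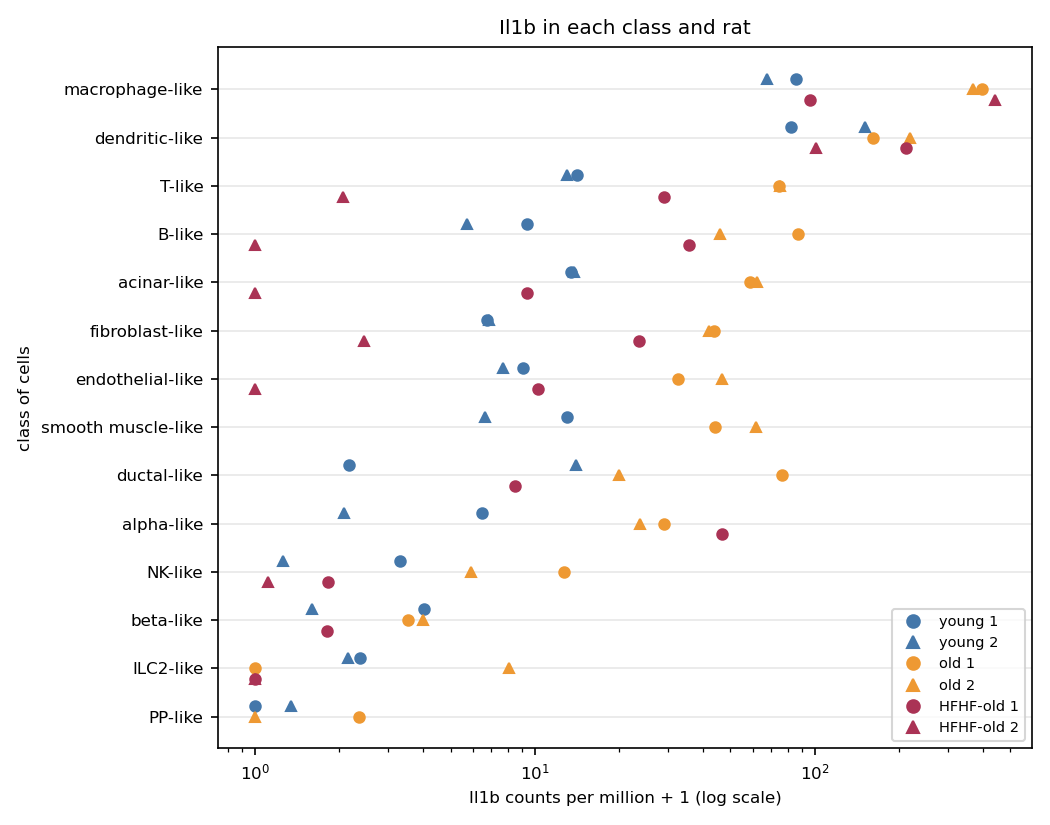
Il1b (CPM + 1, log scale) in 14 classes, each point 1 rat with at least 20 cells of the class; colour gives the group and circle or triangle the rat. In macrophage-like cells the old rats sit at 395 and 366 CPM and the young rats at 85.1 and 66.5; HFHF-old rat 2 sits at or near 0 in acinar-like, B-like and endothelial-like cells.

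Among the other 9 pairs with the smallest p-values, none was called. Il1rapl2 was nearest: in alpha-like cells the 23.5 and 15.5 CPM of the young rats lay below the 83.3 and 47.1 of the old rats (log2 fold change 2.16, SE 0.329, edgeR quasi-likelihood test, adjusted p = 0.0609), and in PP-like cells the difference had these values: log2 fold change 2.10, SE 0.432, edgeR quasi-likelihood test, adjusted p = 0.082. DESeq2 called both. In alpha-like cells edgeR's adjusted p was 0.0111 with doublets left out, 0.0419 with at least 50 cells and 0.00742 with the top 1% of gene number kept. It was 0.0302 with the replicate number as a block. Leaving out HFHF-old rat 1 gave the same fit as at least 50 cells, so it adds nothing to that setting. It was 0.123 with no filter on low counts. The log2 fold change was 1.81 and 2.41 without old rat 1 or old rat 2, and 2.19 and 2.10 without young rat 1 or young rat 2. In PP-like cells edgeR's adjusted p was 0.0389 with the top 1% kept but 0.197 with the replicate number as a block. The log2 fold change there was 1.67 without old rat 1 and 2.44 without old rat 2. Il18 in NK-like cells stood at 55.9 and 60.5 CPM in the young and 136 and 152 in the old rats (log2 fold change 1.42, SE 0.22, edgeR quasi-likelihood test, adjusted p = 0.664, and DESeq2 adjusted p = 0.000194). Il18 was higher in the old rats in each of the 12 classes tested. Over all cells of a library it stood at 63.5 and 59.2 CPM in the young and 127 and 105 in the old rats. In these Il1rapl2 and Il18 pairs the groups did not overlap. Choosing pairs by the smallest p favours this, so it adds no support. DESeq2 also called Il1r1 in smooth muscle-like cells, at 4.64 and 5.64 CPM in the young and 180 and 19.8 in the old rats (log2 fold change 4.01, SE 0.925, edgeR quasi-likelihood test, adjusted p = 0.9986), where old rat 1 had 23 such cells.

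Il9r in T-like cells was lower in old rats, at 0.632 and 1.53 CPM against 11.4 and 18.7. The difference had these values: log2 fold change -3.59, SE 0.684, edgeR quasi-likelihood test, adjusted p = 0.346. DESeq2 called this pair. Il9r was led by ILC2-like cells, which numbered 785 and 349 in the young and 32 and 81 in the old rats. Over all cells of a library it stood at 6.35 and 5.18 CPM in the young and 1.07 and 0.52 in the old rats. The part of these totals in the T-like difference was not tested. Il4i1 in B-like cells was 94.8 and 42.7 CPM in the young and 11.8 and 15 in the old rats, the latter from 3 UMIs and 1 UMI (log2 fold change -2.51, SE 0.602, edgeR quasi-likelihood test, adjusted p = 0.9995). Il2rb in beta-like cells was 16.2 and 18.3 CPM in the young and 1.77 and 6.13 in the old rats (log2 fold change -2.12, SE 0.524, edgeR quasi-likelihood test, adjusted p = 0.512). The summed NK markers in those beta-like cells moved with it, at 188 and 180 CPM in the young and 9.89 and 71.0 in the old rats; their part in the result was not tested. With the top 1% of gene number kept the log2 fold change was -0.03 (edgeR adjusted p = 0.99995). Without old rat 2, which leaves 1 old rat, it was -3.41. This difference depended on which cells and rats were kept. The rest were Il1b in smooth muscle-like cells, Il36b in macrophage-like cells and Il18 in alpha-like cells, all higher in both old rats. Their adjusted p was 0.999, 0.405 and 0.356 by the same edgeR test. Without old rat 1 the log2 fold changes of the first and last were 2.96 and 1.62, against 2.67 and 1.46 with all rats.

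Compared to the old rats, the HFHF-old rats had no pair past the threshold: edgeR called 0 of 297 pairs in the 9 classes with 2 rats in each of these groups, and DESeq2 called 2. Over all genes edgeR called 0% of 95117 pairs and DESeq2 0.221%. At an unadjusted p under 0.05, 34 pairs (11.4%) passed, 14 higher and 20 lower, against 7.53% for all genes. Without HFHF-old rat 1, which leaves HFHF-old rat 2 alone in its group and assumes that it varies like the others, 12 pairs were called (883 of 97979 over all genes), and without HFHF-old rat 2, 1 was (90 of 99135).

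Il18 was lower in the HFHF-old than in the old rats in each of the 8 classes tested. Over all cells of a library it stood at 127 and 105 CPM in the old and 83.2 and 56.3 in the HFHF-old rats. The part of these totals in the differences by class was not tested. In NK-like cells Il18 was 136 and 152 CPM in the old and 72.2 and 63.5 in the HFHF-old rats (log2 fold change -1.27, SE 0.22, edgeR quasi-likelihood test, adjusted p = 0.461). DESeq2 called it (adjusted p = 0.00384). The HFHF-old rats also had the lower Il18 in T-like cells, at 21.9 and 9.06 against 58.5 and 49.6 CPM (log2 fold change -1.99, SE 0.461, edgeR quasi-likelihood test, adjusted p = 0.452). That fold change was -0.79 under the coarser clustering, and -2.63 without HFHF-old rat 1, where it was called (edgeR adjusted p = 0.0269). Macrophage markers in T-like cells summed to 677 and 1044 CPM in the old rats and 2271 in HFHF-old rat 1. They summed to 9.96 in HFHF-old rat 2, the rat on which that call rests, and their part in it was not tested. Most T-like cells of HFHF-old rat 1 came from the cluster led by Scart1, Ccr6 and Foxp3. The part of this make-up in the T-like values of Il18, Il1r2 and Il21 was not tested. In NK-like cells the macrophage markers summed to 235 and 170 CPM in the old rats and to 477 and 4.75 in the HFHF-old rats. Their part in the NK-like values was not tested.

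Il1b in NK-like cells was 11.7 and 4.93 CPM in the old rats and 0.830 and 0.117 in the HFHF-old rats (log2 fold change -5.94, SE 1.05, edgeR quasi-likelihood test, adjusted p = 0.461). DESeq2 called this pair (log2 fold change -5.42, adjusted p = 0.0176), and edgeR did without HFHF-old rat 1 (adjusted p = 0.0292), while the fold change was -3.54 without HFHF-old rat 2, -2.07 under the coarser clustering and -3.19 with looser naming of clusters. In acinar-like cells Il1b was 57.7 and 61.0 against 8.34 and 0 CPM (log2 fold change -2.87, SE 0.714, edgeR quasi-likelihood test, adjusted p = 0.998). Without HFHF-old rat 1, which leaves the rat at 0, that fold change was -10.91 (edgeR adjusted p = 0.0286), and over the other rats left out it lay between -2.92 and -2.49. In macrophage-like cells the HFHF-old rats stood at 95.6 and 440 CPM, on either side of the old rats (log2 fold change -0.77, SE 0.603, edgeR quasi-likelihood test, adjusted p = 0.754). The value of 440 came from 68 cells, 19 of them marked as doublets. The log2 fold change of Il1b was negative in each of the 8 classes tested, from -5.94 to -0.37. HFHF-old rat 2, at 0 in acinar-like cells, held 68 macrophage-like cells in all, so a lower level of Il1b in its other classes and a smaller supply of free RNA cannot be told apart. Il1r2 in T-like cells was 16.6 and 7.95 CPM in the old and 1.92 and 0.0817 in the HFHF-old rats, the last of these 1 UMI (log2 fold change -4.35, SE 0.954, edgeR quasi-likelihood test, adjusted p = 0.452); it was called without HFHF-old rat 1 (edgeR adjusted p = 0.00915), where it rests on HFHF-old rat 2 with its 9.96 CPM of macrophage markers in T-like cells; their part was not tested.

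Some receptors and ligands were higher in HFHF-old rats, without a call. Il21 in T-like cells was 0 and 1.38 CPM in the old and 9.33 and 45.6 in the HFHF-old rats (log2 fold change 5.18, SE 1.22, edgeR quasi-likelihood test, adjusted p = 0.452). Leaving out 1 rat moved this fold change between 3.47, without HFHF-old rat 2, and 10.13, without old rat 2, and it was called without HFHF-old rat 1 (edgeR adjusted p = 0.0122). Il12rb2 in ILC2-like cells was 3.27 and 3.54 CPM, 1 UMI in each old rat, against 23.3 and 84.7 (log2 fold change 3.88, SE 1.04, edgeR quasi-likelihood test, adjusted p = 0.251). Summed NK markers in those cells were 285 and 163 CPM in the old and 202 and 638 in the HFHF-old rats. Il12rb2 was higher in the HFHF-old rats in each of the 9 classes tested. Over all cells of a library it stood at 60.1 and 41.1 CPM in the old and 40.5 and 579 in the HFHF-old rats. The part of these totals was not tested. Il2ra in NK-like cells was 126 and 77.9 CPM in the old and 346 and 188 in the HFHF-old rats (log2 fold change 1.21, SE 0.306, edgeR quasi-likelihood test, adjusted p = 0.461); the fold change was 0.42 under the coarser clustering and 0.58 with looser naming. Il6 in fibroblast-like cells, at the values above, gave a log2 fold change 0.94, SE 0.767, edgeR quasi-likelihood test, adjusted p = 0.978. Il21r in macrophage-like cells and Il1rapl2 in acinar-like cells were lower in both HFHF-old rats, with adjusted p of 0.665 and 0.998 by the same edgeR test. The plot of fold changes shows the 10 pairs of each comparison.

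**Figure D4:**
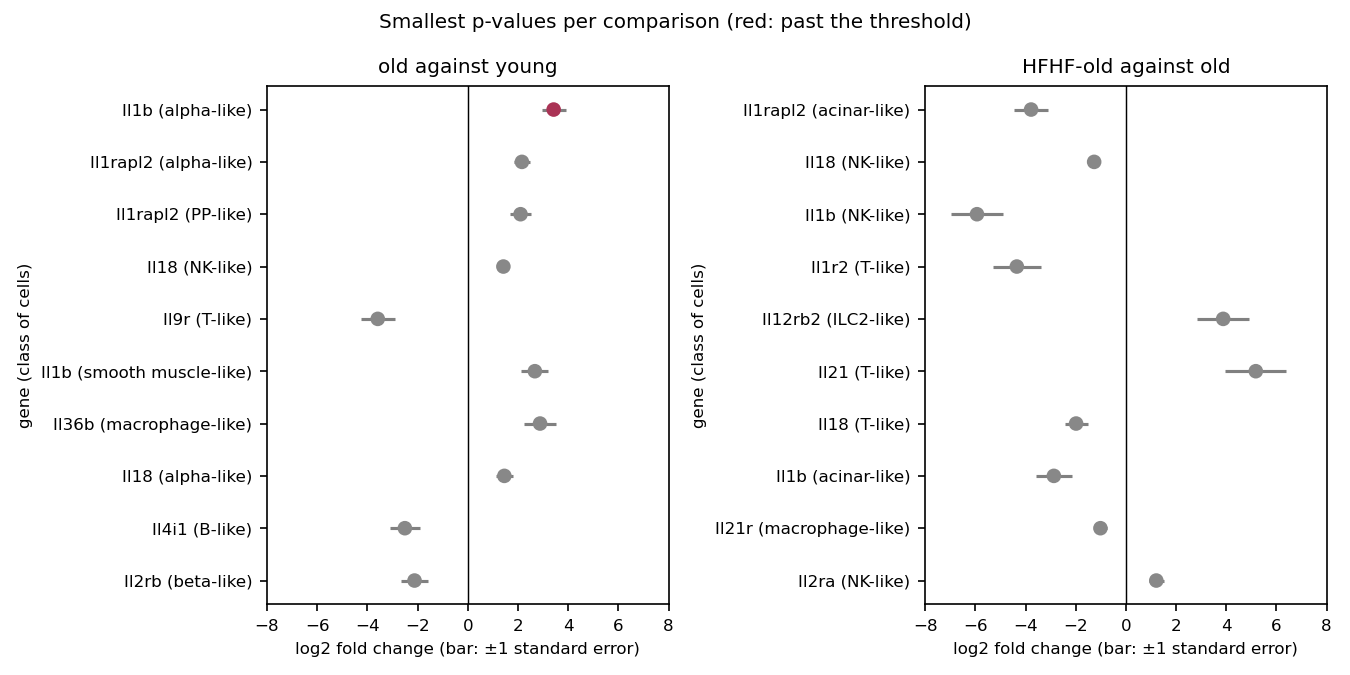
Log2 fold change with 1 standard error for the 10 pairs of gene and class with the smallest p-values, old against young rats on the left and HFHF-old against old rats on the right (n = 2 rats per group). Red marks the only pair past the threshold, Il1b in alpha-like cells at 3.42; the other 19 points are grey.

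No call was made among the wider pathways. Lists of genes that process or carry interleukin signals were followed in the same fits: interleukin-1 and interleukin-18 processing and signalling (18 genes), Janus kinase and STAT signalling (17), receptor subunits and ligands under other names (21), interleukin-17 signalling (8) and lymphocyte transcription factors (9). In the comparison of old with young rats edgeR called 0 of their 221, 217, 144, 84 and 77 pairs, and 18, 10, 21, 8 and 12 had an unadjusted p under 0.05, beside 4.91% of the pairs of all genes. In that of HFHF-old with old rats it called 0 of 144, 146, 101, 54 and 57, with 21, 4, 9, 7 and 10 at an unadjusted p under 0.05, beside 7.53% of all pairs. Their median log2 fold changes lay between -0.10 and 0.17 for old against young rats, beside 0.03 for all genes, and between -0.10 and 0.34 for HFHF-old against old rats, beside 0.01 for all genes; the medians of the interleukin genes themselves were 0.15 and 0.01.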

How the data were processed

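Per the file headers and labels, the authors made UMI counts per gene and barcode with Cell Ranger (5.0.0 in the headers) on Rnor_6.0 and deposited them unnormalized, 1 matrix per rat. Barcodes with under 200 genes, in the top 1% of gene number or over 25% mitochondrial UMIs were left out. Cells were clustered in scanpy 1.11.5 (2000 variable genes without the interleukin genes, 30 components, 15 neighbours, Leiden resolution 2) and clusters were named from marker lists. Islet clusters were pooled and clustered again. So were clusters first named from the neutrophil/monocyte list, a step chosen after the data were seen. Doublets were kept; 8113 barcodes (10.8%) most like simulated doublets were left out in an alternative. Free RNA was not subtracted. UMIs were added up by rat and class and fitted with edgeR 4.0.16 (TMM, filterByExpr, quasi-likelihood test) on all groups, in R 4.3.3; DESeq2 1.42.0 was an alternative, and the fit was tested on simulated data. Genes named in a comparison were all those called, filled up to 10 pairs by the smallest p. Members, lists and classes were chosen with earlier results of these data known. Counting error sets the precision of low values. Promoters came from RefSeq (GRCr8), where 56 of the 75 genes matched a single entry, 3 several and 16 none. Alternatives covered the model, filters, clustering, doublets and each rat left out.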

Additional observations from a re-analysis of the deposited data

How the results depend on the processing

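The count of pairs called was small, and its size depended on the setting. For old against young rats, 1 pair was called (28 of 148441 pairs over all genes) and DESeq2 called 7 (471 of 148441). DESeq2's size factors in edgeR gave 0 (27 of 148441) and no filter on low counts 2 (69 of 253549). At least 50 cells gave 2 (19 of 103390) and leaving out doublets 2 (48 of 130946). The coarser clustering (10 components, resolution 1) gave 0 (80 of 119022). Keeping the top 1% of gene number, chosen after seeing the data, gave 2 (50 of 149189). With a rat left out the count ran from 0 to 11. Il1b in alpha-like cells had no test with the top 1% kept or under the coarser clustering. For HFHF-old against old rats 0 were called (0 of 95117 pairs over all genes). DESeq2 called 2 (210 of 95117) and no filter on low counts 1 (64 of 167253), and the count moved with a rat left out. The causes were not tested. Between 44 and 53 genes had a leading class under the alternatives, against 50, but fewer kept the same class: 29 under the coarser clustering, 40 with at least 50 cells, 39 without old rat 1, 40 without old rat 2 or young rat 1, and 43 to 50 otherwise. The share of NK-like cells with Il2rb fell from 76.6% to 54.0% when thinned to 1000 UMIs, by construction. Named classes held 81.6% of cells, 79.0% under the coarser clustering, 74.1% with the top 1% kept and 85.3% with looser naming. Of 185 fold changes of the 20 named pairs under these alternatives 11 gained a call and 2 lost one, as did 12 and 2 of 120 with a rat left out. No sign turned, but sizes moved: Il2rb in beta-like cells from -2.12 to -0.03 with the top 1% kept, and, under the coarser clustering, Il2ra in NK-like cells from 1.21 to 0.42, Il18 in T-like cells from -1.99 to -0.79 and Il1b in NK-like cells from -5.94 to -2.07. Some of the 185 and 120 fold changes came from fits on the same rats and cells as the main fit or another setting. Each group had 2 rats, which limits every test.

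For rats with the same replicate number the labels give only that number. The correlation of their deviations ran from -0.163 to 0.213. With 2 rats per group the deviations mirror each other, so this cannot decide whether those rats shared a batch. With the replicate block 2 pairs were called for old against young rats (38 of 148441 over all genes). They were Il1b (log2 fold change 3.57, adjusted p = 0.0218) and Il1rapl2 (2.13, adjusted p = 0.0302), both in alpha-like cells by edgeR. For HFHF-old against old rats 0 were called (0 of 95117 over all genes).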
